A study of Mus musculus with 2 samples.

Results

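Immediate early response genes are described here in G1E-ER4 cells. The set holds 10 genes, listed by name: Fos, Fosb, Jun, Junb, Jund, Egr1, Egr2, Atf3, Ier2 and Dusp1. All 10 were found among the 42462 genes that had a name in the deposited gene tables. The data are polyA RNA-seq of an immortalized mouse erythroid line, measured in 2 libraries that form 1 group and are labelled as biological replicates 1 and 2. The parent G1E line lacks Gata1, and G1E-ER4 cells carry GATA1 joined to the ligand-binding part of an estrogen receptor, so both libraries share the Gata1 deficiency and the fusion. Both were labelled as induced to differentiate with estradiol, with no dose or duration given, and as male and postnatal with an age of 0 days. No uninduced library was analysed here, so nothing can be compared between conditions, and no p-value is given. A single biosample record is cited for the pair, and what they differ by may therefore be technical.

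Immediate early genes are transcribed within minutes of a growth factor, cytokine or stress signal, from factors that are already in the cell. RAS and the ERK, JNK and p38 kinases carry the signal to SRF, to its ETS partners and to CREB and ATF factors, which sit on the promoters of genes such as Fos and Egr1. FOS proteins pair with JUN proteins to form AP-1, while JUN proteins can also pair with each other. The transcripts are typically short-lived, and AU-rich stretches in their 3' ends are bound by decay factors of the ZFP36 family.

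Erythroid identity was checked first. All 10 erythroid markers were at 1 TPM or more in both libraries. TPM, the deposited level, is scaled by transcript length and to a fixed total per library. Beta globin Hbb-bs stood at 7940 and 7235 TPM in replicates 1 and 2. Of 31 markers of other cell types 4 reached 1 TPM in both libraries, namely Gp1ba, Itga2b, Hdc and Cd68, and 11 were at 0 counts in both. Summed TPM in replicates 1 and 2 were 50.5 and 66.5 for megakaryocyte markers, 3.65 and 4.08 for mast cell and basophil markers, 1.28 and 1.44 for macrophage and granulocyte markers, 0.06 in each for lymphocyte markers, and 0.55 and 0.67 for fibroblast and endothelial markers. The part of these other cells in the levels given here was not tested. In bulk RNA a gene active in few cells and a gene active weakly in all of them cannot be told apart. The gene tables held 68901065 and 51923116 estimated counts, so 3 counts were 4.35e-06% and 5.78e-06% of a library.

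The coding transcripts of most of the set carry the pentamer ATTTA in the 3' untranslated region, the letters at the core of AU-rich decay elements. The 30-base windows that hold the most such pentamers are shown for 5 detected genes, because they show whether copies lie close together. They are written 5' to 3' on the gene's strand as DNA, from GENCODE M21 transcripts, with ATTTA in capitals.
Fos (12:85477101-85477130): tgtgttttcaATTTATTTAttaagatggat
Dusp1 (17:26506156-26506185): gctggtccttATTTATTTAacacccccctc
Jun (4:95049207-95049236): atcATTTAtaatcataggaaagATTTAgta
Junb (8:84977126-84977155): atatatttgtgtATTTAacagggaggggag
Jund (8:70700359-70700388): cgattccgccctATTTAtgtttctactcgg

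In Fos and Dusp1 a pair of pentamers overlapped by their shared A, in Jun a pair lay apart, and in Junb and Jund the window held 1. At least 1 ATTTA was present in the 3' untranslated region of 9 of the 10 genes, against 60.7% of 8265 detected protein-coding genes. The longer form TATTTAT was in 6 of 10, against 24.2%. Fos, Jun and Dusp1 held 4 pentamers each, Egr2 and Atf3 held 3, Junb and Egr1 held 2, and Fosb and Jund held 1. Ier2, which had the highest TPM of the set, held none in its 755 bases. The set's 3' untranslated regions were also longer, with a median of 1000.5 bases against 780 bases, and the median density was 2.51 pentamers per kb against 1.04. A match of these letters is a description of the sequence and not a measured decay rate.

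Of the 3 models of Dusp1 only 2 had reads, and what mainly sets them apart is an intron of 369 bases (17:26507205-26507573, minus strand), and the next sequences show where they part. The coding model joins its exons without the intron, and the retained intron model reads on into it. Lower case marks exon and capitals mark intron.
Dusp1 spliced junction: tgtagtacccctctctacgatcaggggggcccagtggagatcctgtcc
Dusp1 exon into retained intron: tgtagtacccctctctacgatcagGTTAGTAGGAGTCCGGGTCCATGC
Dusp1 retained intron into next exon: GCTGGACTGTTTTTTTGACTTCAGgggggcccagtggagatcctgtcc

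Fos has a short non-coding model that begins inside the first intron of the coding model, 24 bases before the second exon (12:85474911-85474934, plus strand). These 24 bases, in capitals, are what sets its 5' end apart from the spliced coding transcript.
Fos short model, 5' end: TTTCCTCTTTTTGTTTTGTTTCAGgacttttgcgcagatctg
Fos coding model, spliced junction: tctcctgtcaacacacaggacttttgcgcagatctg

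The 10 genes ran from 0 to 154.8 TPM and fell into 3 bands. Ier2, Jund, Junb and Egr1 were above 40 TPM in both libraries. Dusp1, Jun and Fos lay between 1 and 10 TPM, and Fosb, Egr2 and Atf3 lay under 1 TPM. At 1 TPM or more in both libraries 7 of the 10 were detected, beside 20.9% of all 42462 named genes and 39.0% of 21474 protein-coding genes. The median of the set was 4.84 TPM in replicate 1 and 4.48 TPM in replicate 2, beside 0.02 TPM in each library over all 21474 protein-coding genes, detected or not. Over the 8376 detected protein-coding genes alone the median was 20.3 TPM in each library. The median of the set includes its undetected members.

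**Figure D1:**
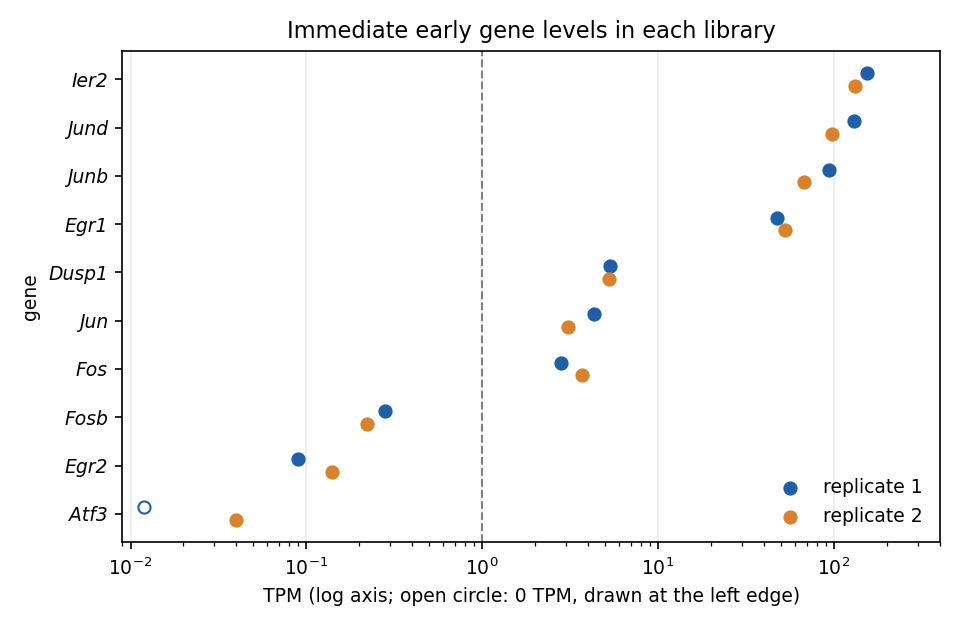
TPM of each of the 10 genes on a log axis, with 1 point for replicate 1 and 1 for replicate 2, ordered by mean, and a dashed line at 1 TPM. Ier2, Jund, Junb and Egr1 lie above 40 TPM, and Fosb, Egr2 and Atf3 lie left of the line, Atf3 with 0 TPM in replicate 1.

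The JUN family was dominated by Jund and Junb. Jund (ENSMUSG00000071076, mm10 8:70698949-70700616, plus strand, 1 exon) encodes JunD, the JUN protein known for being present in resting cells. Replicate 1 had 130.1 TPM and replicate 2 had 97.88 TPM (114 ± 22.8, SD, n = 2), from 21307 and 12023 estimated counts. Junb (ENSMUSG00000052837, 8:84976910-84978718, minus strand, 1 exon) encodes JunB, a weaker activator than c-Jun with roles in myeloid and erythroid cells. Junb stood at 94.36 TPM and 68.04 TPM (81.2 ± 18.6, SD, n = 2). Jun (ENSMUSG00000052684, 4:95049034-95052222, minus strand, 1 exon), the gene of c-Jun, stood at 4.32 TPM and 3.09 TPM (3.71 ± 0.870, SD, n = 2). All 3 were higher in replicate 1. Their order was the same in each library, and neither the Jund nor the Junb values overlapped those of Jun.

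Ratios within the family varied little between the libraries. Jund was 30.1 times Jun in replicate 1 and 31.7 times in replicate 2. Junb was 21.8 and 22.0 times Jun. Jund was 1.38 and 1.44 times Junb. The higher Junb value, 94.36 TPM, lay just under the lower Jund value, 97.88 TPM, and Jund was above Junb within each library.

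The level of Jund depends on the transcript model. The deposited length was 2878 bases, which runs from the RefSeq start site to the end of the GENCODE M21 model, whereas the M21 model has 1668 bases and lacks the first 1210. Rescaled to the shorter model with all reads kept, Jund would be at 234 and 176 TPM (205 ± 41.5, SD, n = 2). Reads in the 1210 bases that this model lacks were not taken out, so these values are upper limits. At these limits Jund would be 1.51 and 1.33 times Ier2, which would turn the order of the top pair. This alternative was chosen after seeing the data. Gm11175, an antisense gene, overlaps 919 bases of Jund and was at 0.56 and 0.51 TPM, and 50.1% of the 31-base words of Jund occur in it. Junos overlaps 689 bases of Jun in antisense and was at 0.18 and 0.26 TPM. The sources used here do not state whether counting used strand, so reads of each pair cannot be told apart.

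The FOS side was low. Fos (ENSMUSG00000021250, 12:85473890-85477273, plus strand), the gene of c-Fos and the classic serum-response target, stood at 2.79 and 3.68 TPM in replicates 1 and 2 (3.24 ± 0.629, SD, n = 2), from 150 and 180 estimated counts. Fosb (ENSMUSG00000003545, 7:19302696-19310051, minus strand), its paralog, stood at 0.28 and 0.22 TPM (0.25 ± 0.0424, SD, n = 2) from 61 and 35 counts. The libraries disagreed on the order of Fos and Jun, with Jun 1.55 times Fos in replicate 1 and 0.840 times in replicate 2, so these neighbours do not differ beyond their spread. Fosl1, which encodes the FOS-related protein Fra-1, was above Fos in both libraries, at 6.36 and 6.73 TPM. Summed, Jun, Junb and Jund had 228.78 and 169.01 TPM, and Fos, Fosb, Fosl1 and Fosl2 had 9.51 and 10.73 TPM, so that JUN transcripts were 24.1 and 15.8 times as abundant as FOS transcripts.

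Most of the Fos TPM did not sit in the coding model. The coding transcript had 0.79 and 1.5 TPM, which was 28.4% and 40.7% of the gene's TPM. The short non-coding model of 631 bases, of which 607 are shared with the coding model, had 2.00 and 2.12 TPM, or 71.6% and 57.7%. On estimated counts, which are not divided by length, the coding model led with 62.1% and 73.4%. The leading model of Fos thus turns with the unit. Among 5016 genes with at least 1 coding and 1 retained intron or processed model, 25.9% had under 50% of TPM in coding models in both libraries. Counting coding models alone would take Fos below 1 TPM in replicate 1 and leave 6 of the 10 genes detected.

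Among the EGR zinc finger factors, Egr1 and Egr2 stood far apart. Egr1 (ENSMUSG00000038418, 18:34859823-34864984, plus strand) encodes a factor that SRF and ETS factors induce after growth signals. Replicate 1 had 47.4 TPM and replicate 2 had 52.88 TPM (50.1 ± 3.87, SD, n = 2), from 11524 and 9669 estimated counts. Both coding models of Egr1 held reads, with 80.1% and 81.2% of TPM in the longer one. Egr2 (ENSMUSG00000037868, 10:67535475-67542188, plus strand), known from hindbrain and Schwann cells and from lymphocytes, was at 0.09 and 0.14 TPM, from 6 and 4 counts spread over 3 of its 7 models. Egr1 was 527 and 378 times Egr2. That ratio rests on the few counts of Egr2, while the Egr1 values lay close together.

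Atf3 (ENSMUSG00000026628, 1:191170296-191218039, minus strand) encodes a stress-induced bZIP factor and was the lowest of the set, listed at 0 counts in replicate 1 and at 3 counts (0.04 TPM) in replicate 2. Both values lie at or under the floor of 3 counts. Ier2 (ENSMUSG00000053560, 8:84661331-84662852, minus strand, 1 exon) encodes a small nuclear protein that is induced early after growth signals. It was the highest of the set, with 154.8 and 132.03 TPM in replicates 1 and 2 (143 ± 16.1, SD, n = 2), from 12710 and 8165 estimated counts. Ier2 was above 88.7% and 87.5% of the detected genes, while Egr1 was above 70.2% and 72.1%, Jun above 19.3% and 13.3%, and Fos above 12.0% and 16.1%. Ier2 was 1.19 and 1.35 times Jund, and the lower Ier2 value, 132.03 TPM, lay just above the higher Jund value, 130.1 TPM, so Ier2 led Jund within each library by the deposited lengths.

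Dusp1 (ENSMUSG00000024190, 17:26505590-26508519, minus strand) encodes a phosphatase that switches off ERK, JNK and p38 kinases and so ends the signal that induces the other members. Its total level was nearly equal in the libraries, at 5.35 and 5.28 TPM (5.32 ± 0.0495, SD, n = 2), from 629 and 440 estimated counts. The makeup of that level was not equal. Its coding model was at 3.34 and 5.10 TPM in replicates 1 and 2, which was 62.5% and 96.6% of the gene's TPM. The retained intron model shown above had 2.01 and 0.18 TPM, or 37.5% and 3.36%, from 260.33 and 17.26 estimated counts.

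Few genes had a retained intron share that differed as much as that of Dusp1, where replicate 2 minus replicate 1 was -34.15 points. Of 3800 genes with a retained intron model and a mean of at least 100 counts, 3.32% differed at least as much in either direction, and in 67 of them replicate 2 was the lower. Dusp1 was picked out for this after its values were seen. The libraries as a whole were close in this measure. The median share of retained intron models over these genes was 3.09% in replicate 1 and 3.16% in replicate 2, and such models held 12.6% and 13.1% of all TPM. Genomic DNA would add intron reads and reads of genes without introns. Olfactory receptor genes, 1020 in all, reached at most 0.06 TPM in each library. The part of genomic DNA in the intron reads of Dusp1 was not tested.

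**Figure D2:**
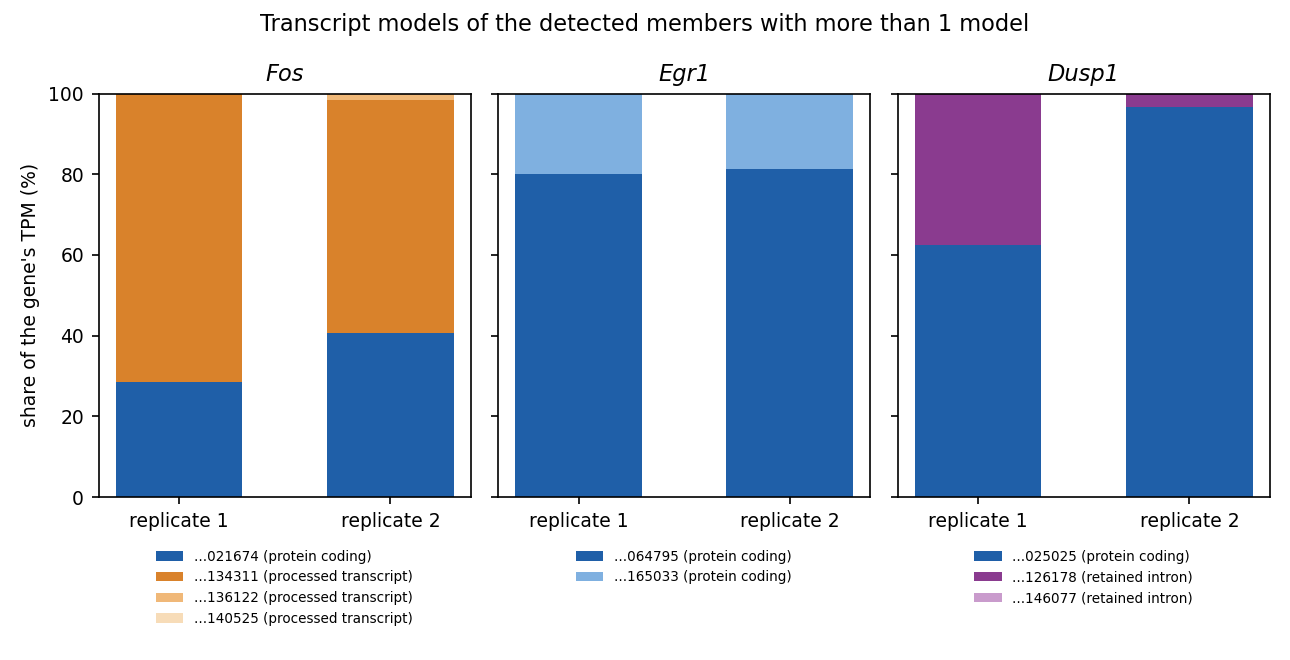
Share of each gene's TPM (percent, as deposited) held by each transcript model of Fos, Egr1 and Dusp1, with 1 stacked bar per library and models named by the last 6 digits of their identifier. Egr1 is split alike in both libraries, the short Fos model is the largest in both, and the retained intron model of Dusp1 holds 37.5% in replicate 1 and 3.36% in replicate 2.

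Differences between the libraries were small next to the differences between the genes. Estimated counts were scaled by TMM, a trimmed mean that sets the libraries on a common scale, and the ratio of replicate 2 to replicate 1 was taken for the 8 members with a mean of at least 10 counts. Of these 0 were past 2-fold, beside 9.61% of the 10793 genes so measured. Egr2 and Atf3 had too few counts. The 95% intervals that follow are exact (Clopper-Pearson) and cover counting error only, since reads copied by PCR are not independent molecules.

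Fos differed most on scaled counts, with 1.71 times as many scaled counts in replicate 2 (interval 1.37 to 2.14). That is 0.78 on the log2 scale, beside an SD of 0.69 over all genes measured. Its TPM differed less, with replicate 2 at 1.32 times replicate 1, and on that scale Jun differed most, at 0.715 times. Egr1 was 1.20 times as high in replicate 2 (1.17 to 1.23), and Dusp1 did not separate the libraries at 0.999 (0.883 to 1.13).

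The 3 JUN genes and Ier2 were lower in replicate 2. Jun was at 0.766 of replicate 1 (0.679 to 0.863), Junb at 0.775 (0.749 to 0.801), Jund at 0.806 (0.788 to 0.824) and Ier2 at 0.918 (0.892 to 0.944). For Fosb the interval spanned equality, at 0.820 (0.525 to 1.26). All of these are differences between 2 libraries of 1 condition, and the SD of the TPM over the libraries, given above, is the only measure of spread.

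**Figure D3:**
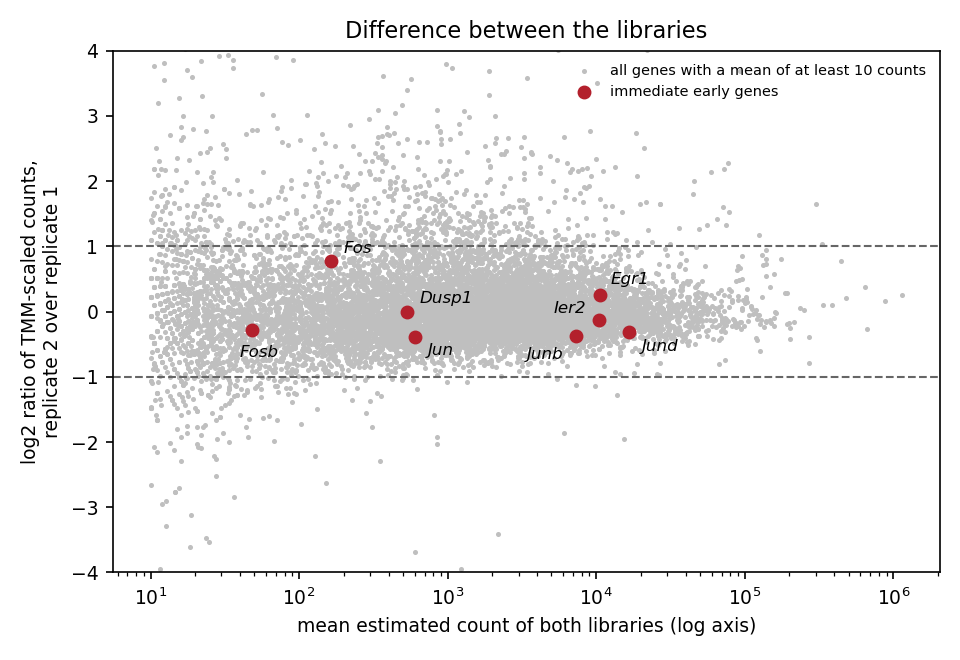
Log2 ratio of TMM-scaled counts, replicate 2 over replicate 1, against the mean estimated count (log axis) for all 10793 genes measured in grey and the 8 members measured in red, with dashed lines at 2-fold and 35 genes beyond the plotted range. All 8 lie between the lines, from Jun at the low end to Fos at 0.78.

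Genes that belong to the same pathway were read from lists. Of 17 other AP-1 and ATF genes 12 were detected. Atf5 was the highest at 550.23 and 554.39 TPM, followed by Atf4, the effector of the integrated stress response, at 132.28 and 116.41 TPM, and Atf1 at 84.52 and 51.76 TPM. Atf4 was thus close in level to Ier2 and Jund, while Atf3, a known target of ATF4, was at the floor.

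Corepressors of the EGR factors were detected, while the other EGR paralogs were not. Nab2, a corepressor that binds EGR proteins, was at 77.36 and 69.12 TPM and Nab1 at 22.69 and 19.98 TPM, while Egr3 and Egr4 were listed at 0 counts in both libraries and Wt1 was at 0.03 and 0.02 TPM. Of the 6 genes of SRF and its partners 4 were detected. Srf was at 82.43 and 80.61 TPM, the coactivator Mrtfa at 17.91 and 17.57 TPM, and Elk1, an ETS partner, at 15.11 and 18.13 TPM. Mrtfb, under 1 TPM, had 2.23 times as many scaled counts in replicate 2. Its TPM went the other way, at 0.77 in replicate 1 and 0.69 in replicate 2.

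The kinases that lead to these factors were nearly all detected, 20 of 21. The highest were the MAP kinase kinases Map2k2 (413.62 and 367.19 TPM), Map2k3 (402.51 and 292.14 TPM) and Map2k7 (158.98 and 122.85 TPM). Araf, a RAF kinase, was the 1 gene of the list past 2-fold, at 2.72 times as many scaled counts in replicate 2. Of the 12 other dual specificity phosphatases 2 were detected, a share near the 20.9% of all named genes and under the 39.0% of protein-coding genes. They were Dusp7 (17.8 and 16.12 TPM) and Dusp16 (2.37 and 2.99 TPM), and Dusp8 came next at 0.28 and 0.24 TPM. A further 7 were listed at 0 counts in both libraries, among them Dusp4, Dusp5 and Dusp6, which act on ERK. With 5.35 and 5.28 TPM, Dusp1 ranked below Dusp7 and above every other gene of that list.

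Of 35 other immediate early genes 20 were detected, a share lying between those of the set and of all named genes. Myc was at 685.84 and 839.41 TPM, which is 4.43 and 6.36 times Ier2. Mcl1, a survival gene of the BCL2 family, was at 444.36 and 343.22 TPM, and Gadd45a at 127.38 and 87.81 TPM. Klf10 and Sgk1 had 2.36 and 2.99 times as many scaled counts in replicate 2. In TPM Klf10 was at 2.49 and 5.48, and Sgk1, which differed less in that unit, at 1.27 and 2.2. A further 6 of the list, including Nr4a1 and Klf4, were listed at 0 counts in both libraries. All 16 genes for the decay and binding of AU-rich mRNA were detected, led by Zfp36l2 (841.97 and 713.6 TPM), Hnrnpd (633.6 and 563.18 TPM) and Zfp36l1 (199.67 and 188.96 TPM). Over these 7 lists 76 of 112 genes were detected and 5 of the 82 with enough counts were past 2-fold, beside the 39.0% of protein-coding genes detected and the 9.61% of all measured genes past 2-fold.

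**Figure D4:**
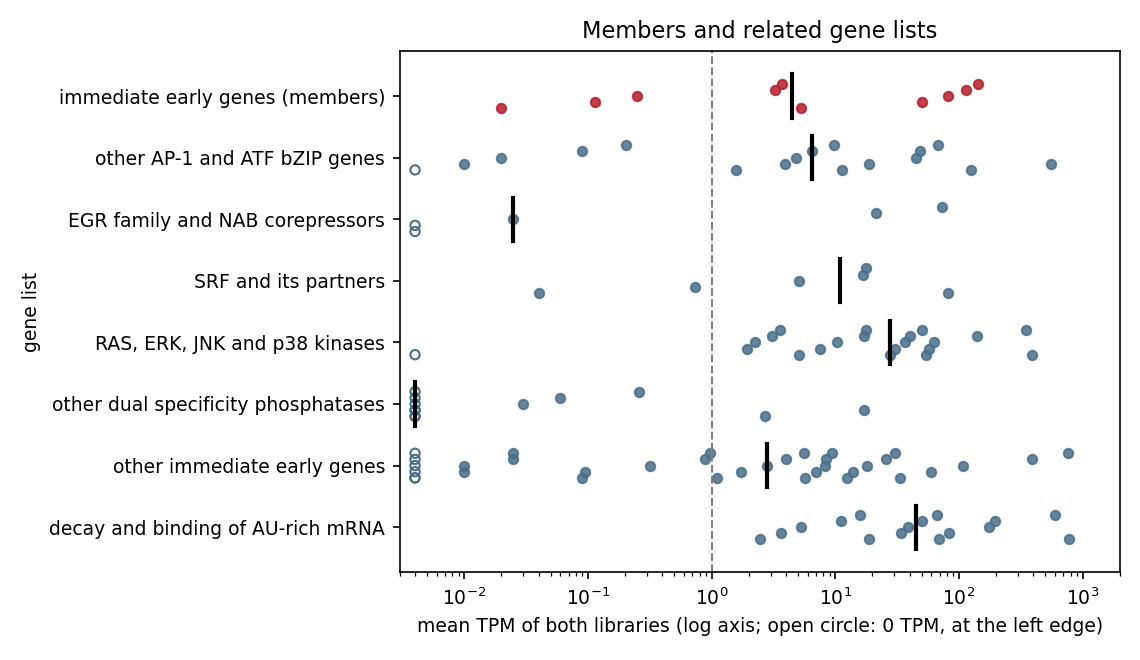
Mean TPM of both libraries (log axis) for every gene of the immediate early set in red and of 7 related lists in blue, with a black bar at each list's median and a dashed line at 1 TPM. Genes for the decay of AU-rich mRNA all lie right of the line, while the median of the other dual specificity phosphatases is 0 TPM.

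The members also share features of gene structure. Jun, Junb, Jund and Ier2 have 1 exon, 4 of 10 genes against 2.46% of 8376 detected protein-coding genes. The median span on the chromosome was 3.29 kb against 21.9 kb, and Atf3 was the exception at 47.7 kb. A single exon leaves no splice junction by which reads of spliced RNA could be told from DNA. The part of DNA in the levels of these genes was not tested.

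The highest members were also the richest in G and C. Jund had 67.1% GC, Junb 62.6% and Ier2 60.9%, all in the top decile of detected protein-coding genes, and Egr1 had 57.3%. Fos at 51.9%, Atf3 at 52.2% and Egr2 at 52.7% were the lowest. Detected coding genes as a whole had higher medians where GC was higher: the top decile reached 60.2 and 55.8 TPM, and the bottom one 8.35 and 6.93 TPM. Ier2, Jund, Junb and Egr1 lay above the median of their decile in both libraries, whereas Dusp1, Jun, Fos, Fosb, Egr2 and Atf3 lay below theirs. The part of GC content in these levels was not tested.

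**Figure D5:**
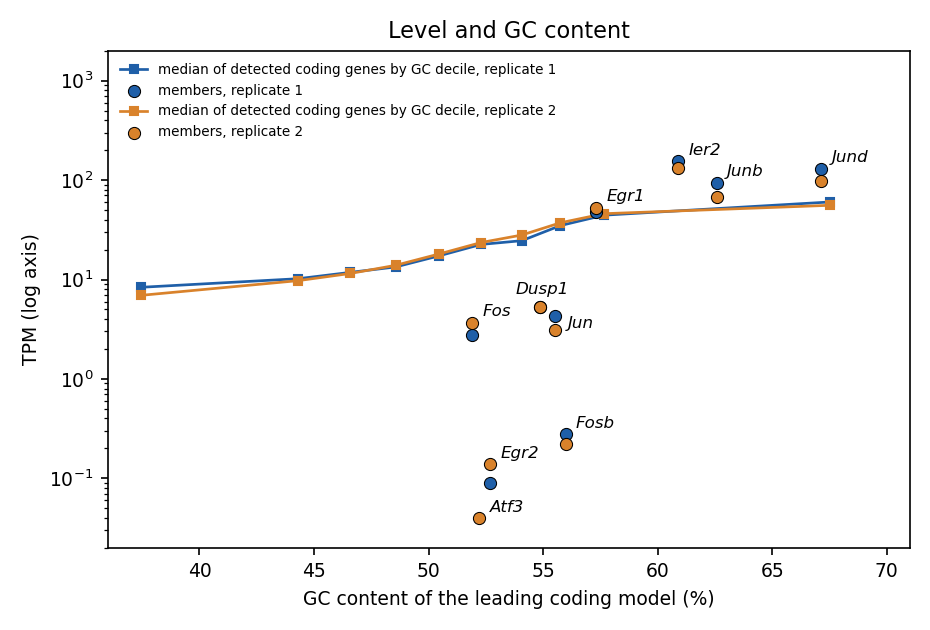
TPM (log axis) against the GC content of the leading coding model for the members in each library, with the median TPM of detected protein-coding genes in each decile of GC content joined by lines. Ier2, Jund and Junb lie above the lines, Egr1 lies close to them and the other 6 lie below, and Atf3 in replicate 1, at 0 TPM, is not drawn.

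Promoter sequences from RefSeq (GRCm38.p6, 250 bases before to 50 after the start site) were found for 8 of the 10 genes, all but Egr1 and Ier2. They were searched on both strands for the letters of factors that act on immediate early genes. A member was counted if any of its promoter entries matched, whereas the shares of all promoters are per entry. A CArG box, the element bound by SRF, was found in 1.63% of 32851 promoters and in 1 member, Egr2. The cyclic AMP response element TGACGTCA, bound by CREB and ATF factors, was found in 1.79% of promoters and in 1 member, Dusp1. Egr2 has 5 promoter entries, of which the second holds the CArG box shown here, and entries 3, 4 and 5 hold another CArG box, with no ETS core in those windows. The stretches are shown with the start site counted as 0. Capitals mark the cyclic AMP response element, the CArG box and the ETS core CCGGAA. In Egr2 the ETS core lies on either side of the CArG box, the first as a pair of overlapping matches on opposite strands. Matches to the SP1 element GGGCGG are left in lower case. They lie at -150 to -145 and -135 to -130 in Dusp1, and 1 at -35 to -30 in Egr2 runs past the end of the stretch.
Dusp1, bases -160 to -100 (17:26508572-26508632, minus strand): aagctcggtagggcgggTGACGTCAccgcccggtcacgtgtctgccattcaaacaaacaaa
Egr2, bases -140 to -31 (10:67537426-67537535, plus strand): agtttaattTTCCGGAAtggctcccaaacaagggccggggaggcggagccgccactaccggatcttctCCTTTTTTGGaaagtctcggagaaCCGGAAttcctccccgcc

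Egr2 was at 0.09 and 0.14 TPM, and Dusp1 at 5.35 and 5.28 TPM. Egr1 and Ier2, which were above 40 TPM, had no promoter entry, so these matches cannot be set against level over the set. The AP-1 element TGANTCA was in none of the 8 members and in 7.81% of all promoters. The GATA letters AGATAA were in 1 member, Jun, and in 11.2% of promoters, and the ETS core was in 1 member and 14.9%. More common letters were the SP1 element GGGCGG in 6 members and 35.7%, CCAAT in 4 members and 37.4%, and TATAAA in 2 members and 13.6%. TATAAA lay at -33 to -28 in Fos, and at 0 to 5, on the start site itself, in Junb. A missing match says only that these letters are not in this window. For Jund the window lies at the RefSeq start site, 1210 bases before the start of the M21 model, and held no match.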

How the data were processed

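Both libraries have gene and transcript tables. Expected counts are the authors' estimated counts, which need not be whole, and TPM and FPKM are levels per transcript length, per the file headers. Isoform shares were deposited in percent of a gene's total TPM. Coordinates follow mm10 per the labels, and models follow GENCODE M4 per the deposited readme files. The sources used here name no aligner or quantifier and no use of strand. Names, types, coordinates and sequences came from GENCODE M21 (same build), by identifier without version.

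The members and lists were chosen with earlier results of these data known. All members are named. From each other list the 3 highest genes are named, with those at least 2-fold apart that average 100 counts or more, and further list genes were named after their values were seen. Levels are means and SDs of TPM. Counts were rounded and scaled by TMM in edgeR 4.0.16 (R 4.3.3), with DESeq2 1.42.0 size factors as an alternative. The ratio was tested on simulated counts that held counting error alone, so that test does not cover the spread between real libraries. Intervals used scipy 1.17.1. Depth was 68901065 and 51923116 estimated counts, so counting error is small for abundant genes, where the spread of the libraries limits precision, and larger for genes near 1 TPM. The values of 1 erythroid marker are not reported here, although it is in the counts of markers.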

Additional observations from a re-analysis of the deposited data

How the results depend on the processing

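The median level of the set, 4.51 TPM over both libraries, became 3.93 in FPKM and 9.30 in CPM, which are other units, CPM without division by length. Without either library it ran from 4.48 to 4.84 TPM. The count of 7 detected genes became 5 at a minimum of 5 TPM, 4 at 10 TPM, and 6 with coding models alone, an alternative chosen after seeing the data, as was the length of Jund. No member passed 2-fold under any of the 7 alternatives of scaling, unit or filter, while the share of all genes past 2-fold ran from 5.80% to 12.4%. Only the alternative with no filter on low counts included Egr2 and Atf3. There the 0 counts of Atf3 were raised to the floor of 3 counts, so Atf3 could not have passed. Another alternative added 1 TPM to both values before the ratio, which pulls a gene under 1 TPM, such as Fosb, towards equality. Dusp1 lay so near equality that its sign turned under DESeq2 size factors, which left 5 members higher in replicate 1 in place of 6. Of Fos, Egr1 and Dusp1, 2 held at least 50% of TPM in coding models, and 3 did so by estimated counts. Depth limits Egr2 and Atf3. No paired analysis was possible because the libraries form 1 group.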
